A study of Mus musculus with 8 samples.

Results

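Interferon response genes were examined in pancreatic tumors that had grown in hosts with or without complement component C3. The 45 genes were chosen by symbol as widely used interferon-stimulated transcripts, with earlier results of these data known. All 45 were found among the 29968 genes of the deposited table. Of these, 44 passed the filter on low counts and were among the 16610 genes tested, and Tgtp1 did not pass. The tumors came from 4 WT mice (C57BL/6J) and 4 complement C3 null mice (C3-/-), in which the gene is disrupted in every host cell. The mice were male and 12 weeks old, and each received 250000 KPC cells in 50 µL of PBS in the pancreas. All tumors thus grew from 1 murine line, FC1245, isolated from a pancreatic tumor with a mutant Trp53 allele and Pdx-1-Cre, and these cells keep an intact C3 gene. Tumors were named by host genotype and the replicate number of the labels, and the 4 per genotype were described as biological replicates. No tumor-free pancreas was part of the comparison.

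Type I interferons signal through the IFNAR1 and IFNAR2 receptor chains, the kinases JAK1 and TYK2, and a complex with STAT2 and IRF9 that binds the interferon-stimulated response element (ISRE) in DNA. Interferon gamma signals through IFNGR1 and IFNGR2, and its target genes can carry the gamma-activated site (GAS). In tumors, transcripts of these target genes can come from cancer cells, macrophages, endothelium or fibroblasts, since most cell types carry the receptors. The data were bulk RNA-Seq, in which fewer cells of a type and less RNA per cell cannot be told apart.

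The libraries held 13266029 to 23354212 counts per tumor, over 22174 to 25343 genes with a count. C3 served as a check of the labels, with 209.6 to 425.9 normalized counts (CPM, scaled to library size with TMM factors) in WT tumors and 100.3 to 133.7 CPM in C3-/- tumors. Its log2 fold change (C3-/- over WT in every such value) was -1.42 (SE 0.23), and the adjusted p was 0.933 by edgeR and 1.2e-05 by DESeq2. Keratins and other transcripts of tumor epithelium summed to 5348 to 10544 CPM over the 8 tumors. Skeletal muscle transcripts summed to 1236 to 3019.5 CPM in WT 1, WT 4 and C3-/- replicates 1, 3 and 4, and to at most 2.64 CPM in the other 3 tumors. Acinar transcripts summed to 1489.9 CPM in C3-/- 1 and to 38.5 to 440.5 CPM elsewhere. Islet transcripts summed to 72.3 CPM in WT 2 and to at most 1.86 CPM elsewhere. Hepatocyte transcripts summed to 68.8 CPM in WT 4 and to 11.2 to 25.3 CPM elsewhere, and of their 4 genes 0 had a positive log2 fold change and 2, Alb and Fgb, were lower in C3-/- tumors at an unadjusted p below 0.05 in edgeR. The part of these transcripts in the values that follow was not tested.

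The DNA in front of the genes was read first, because the response elements link these genes to interferon. RefSeq promoters of build GRCm38.p6, from 250 bases before to 50 bases after the start site, were matched by symbol for 34 of the 45 genes. The ISRE core was searched as GAAANNGAAA and the GAS as TTCNNNGAA, on both strands. Of the 34 genes, 19 (55.9%) held an ISRE core, against 3.99% of the 27025 genes with a promoter. A GAS was held by 12 (35.3%), against 9.55% of all genes. Both were held by 7 genes and neither by 10, and the motifs overlapped each other only in Bst2. Of 29 ISRE core matches, 22 began in the 150 bases before the start site. All 4 guanylate-binding protein genes with a promoter held an ISRE core (Gbp2, Gbp3, Gbp5 and Gbp7), as did 3 of the 4 IFIT genes. A match describes these letters, and binding of a factor was not tested.

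The 4 promoters shown are those of the marker genes Ifit1 and Isg15 and those of Gbp2 and Irf1, which had the highest level of the guanylate-binding proteins and of the transcription factors. Each run holds the 250 bases before the start site, 5′ to 3′ on the strand of the gene, and capitals mark the motif matches. The runs lie at chr19:34640639-34640888 (plus strand) for Ifit1, chr4:156200819-156201068 (minus strand) for Isg15, chr3:142620413-142620662 (plus strand) for Gbp2 and chr11:53769764-53770013 (plus strand) for Irf1, all on GRCm38.p6.
Ifit1: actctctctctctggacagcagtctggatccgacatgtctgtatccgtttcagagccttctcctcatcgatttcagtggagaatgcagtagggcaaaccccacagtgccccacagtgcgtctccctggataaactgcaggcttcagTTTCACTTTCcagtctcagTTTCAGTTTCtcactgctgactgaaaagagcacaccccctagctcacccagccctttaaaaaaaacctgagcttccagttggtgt
Isg15: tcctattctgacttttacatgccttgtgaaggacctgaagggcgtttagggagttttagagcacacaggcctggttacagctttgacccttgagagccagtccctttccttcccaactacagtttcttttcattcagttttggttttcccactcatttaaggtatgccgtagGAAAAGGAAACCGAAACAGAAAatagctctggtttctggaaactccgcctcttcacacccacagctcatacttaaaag
Gbp2: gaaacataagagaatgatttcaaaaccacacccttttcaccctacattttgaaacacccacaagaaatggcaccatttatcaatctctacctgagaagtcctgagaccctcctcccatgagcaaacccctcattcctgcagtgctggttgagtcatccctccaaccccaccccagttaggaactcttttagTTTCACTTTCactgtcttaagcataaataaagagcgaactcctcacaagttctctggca
Irf1: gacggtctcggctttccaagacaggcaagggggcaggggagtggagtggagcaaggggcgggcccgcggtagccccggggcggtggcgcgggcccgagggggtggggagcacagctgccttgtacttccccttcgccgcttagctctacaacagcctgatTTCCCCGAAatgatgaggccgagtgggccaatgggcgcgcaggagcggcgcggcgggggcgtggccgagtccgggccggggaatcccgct
Ifit1 held 2 separate ISRE cores, both read on the opposite strand. Isg15 held 3 that overlap each other, the nearest beginning at position -66 relative to the start site. Gbp2 held 1 ISRE core, which began at position -59. Irf1 held no ISRE core and 1 GAS, at position -90.

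Per length of transcript, these genes had a lower median level than all genes tested. The mean FPKM (fragments scaled to gene length and library size, as deposited by the authors) was above 1 for 30 of the 45 genes, against 79.8% of the genes tested, and the median was 1.89 FPKM against 4.94 FPKM. Bst2, which encodes the membrane tether tetherin, had by far the highest level at 45.8 FPKM. Oasl1, a member of the 2'-5'-oligoadenylate synthetase family, followed at 13.6 FPKM, then the exonuclease gene Isg20 at 13.2 FPKM and Samd9l at 12.6 FPKM. No other member was above 10 FPKM. The lowest were the guanylate-binding protein gene Gbp6 at 0.117 FPKM and the GTPase gene Tgtp1 at 0.198 FPKM. The marker genes Ifit1 and Isg15 were counted in every tumor, with 13 to 116 counts and 27 to 119 counts.

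Host C3 was compared by testing all genes for a difference between C3-/- and WT tumors, the question being whether loss of host complement altered the tumor transcriptome. Of the 44 interferon response genes tested, 39 (88.6%) had a positive log2 fold change, against 50.0% of all genes tested. Their median log2 fold change was 0.36, while that over all genes tested was -5.84e-05. No single gene passed the test. In edgeR, 0 of the 44 had an adjusted p below 0.05 (Benjamini-Hochberg over all genes, where 0% were called), and the smallest adjusted p was 0.933. C3, the gene disrupted in the hosts, had the same adjusted p in edgeR and was not called either. In DESeq2, 0 of 45 were called where 0.0848% of 18864 genes were, with a smallest adjusted p of 0.344, and limma-voom called 0 as well. At an unadjusted p below 0.05 in edgeR, 6 genes (13.6%) were higher in C3-/- tumors, against 3.03% of all genes, and 0 were lower, against 2.07%. The 6 higher genes were Irf1, Oas2, Trim30a, Igtp, Irgm2 and Gbp2. Values of all 4 C3-/- tumors lay above those of all 4 WT tumors for 5 genes (11.4%, against 2.28% of all genes) and below them for 0, against 1.45%. Those 5 were Oas2, Trim30a, Irf1, Irf9 and Igtp. The 44 genes were measured in the same 8 tumors and are not independent of one another, so these counts describe the list and do not test it.

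The counts depended on single tumors. At an unadjusted p below 0.05 in edgeR, the 6 members became 2 without C3-/- 4 (Irf1 and Igtp) and 3 without C3-/- 3 (Irf1, Oas2 and Trim30a), all of them higher in C3-/- tumors. The share of all genes that were higher also fell in these fits, from 3.03% to 2.05% and 1.66%. Without C3-/- 1 they became 9, of which 8 were higher and 1 lower in C3-/- tumors, while 5.11% of all genes were then higher and 5.57% lower. The median log2 fold change was 0.24 without WT 2, when 34 of 44 were positive, and 0.46 without WT 4. Irf1 was the only member with an unadjusted p below 0.05 in each of the 8 fits that left out 1 tumor.

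**Figure D1:**
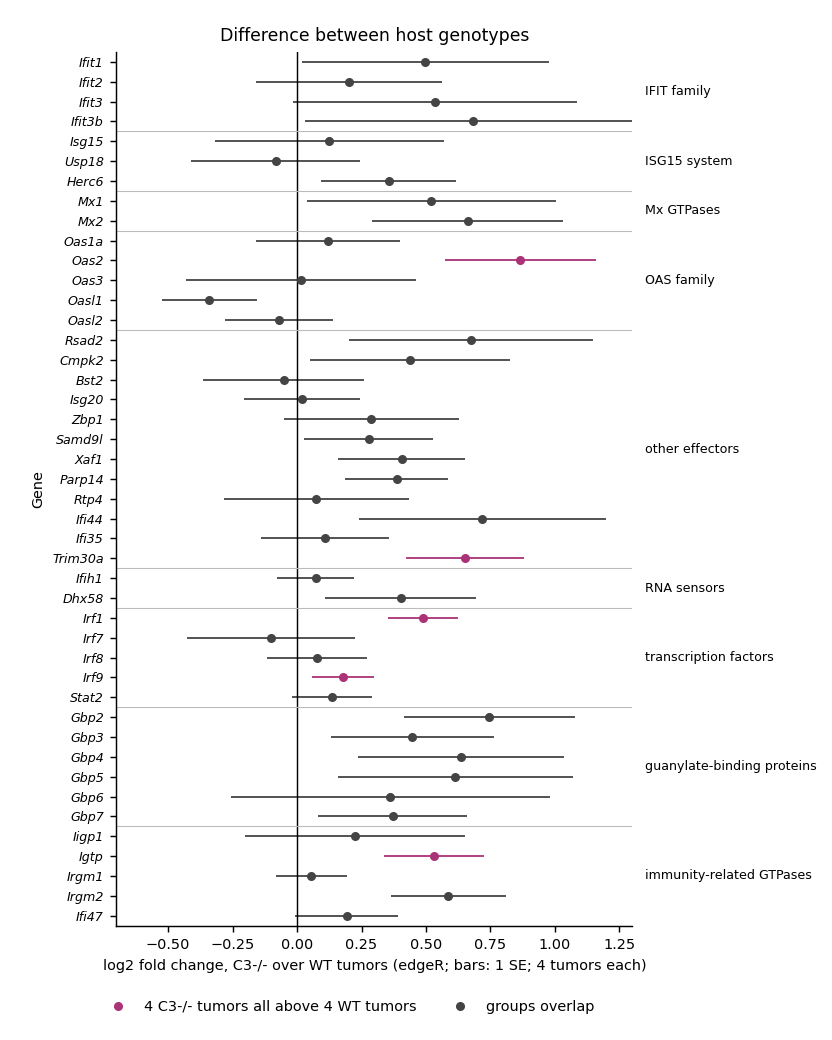
Log2 fold change of 44 interferon response genes (x axis, C3-/- over WT tumors, edgeR) by gene and functional class, with bars of 1 SE from 4 tumors per genotype. Points lie right of 0 for 39 genes, and the 5 genes in purple, Oas2, Trim30a, Irf1, Irf9 and Igtp, had every C3-/- tumor above every WT tumor.

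Interferon regulatory factors and STAT2 carry the signal to these genes. Irf1 encodes an interferon regulatory factor induced by interferon gamma and lies on chromosome 11 of mm39 (53660841 to 53669200, plus strand). It had 29.0, 22.0, 23.6 and 27.7 CPM in WT tumors and 37.7, 34.6, 38.3 and 33.0 CPM in C3-/- tumors. All C3-/- values were above all WT values, with means of 25.6 ± 3.33 and 35.9 ± 2.49 CPM (mean ± SD, n = 4 per genotype). The log2 fold change of Irf1 was 0.49 (SE 0.13), with an unadjusted p of 0.00457 and an adjusted p of 0.933 in edgeR, and 0.42 to 0.55 with a tumor left out. The gene model Gm17334 overlaps Irf1, and 45.9% of the Irf1 transcript matched it or Gm74496 at 98% identity or more. Irf9, the DNA-binding subunit of the type I complex, had the smallest spread of all members, with 29.2 to 31.3 CPM in WT tumors and 31.4 to 37.1 CPM in C3-/- tumors. Those groups did not overlap although the log2 fold change was only 0.18 (SE 0.12). Stat2 (log2 fold change 0.14, SE 0.16), the myeloid factor gene Irf8 (log2 fold change 0.08, SE 0.19) and Irf7 (log2 fold change -0.10, SE 0.33), which amplifies type I interferon production, overlapped between genotypes. Irf7 ranged from 6.86 CPM in WT 2 to 17.3 CPM in WT 4, wider than the distance between the genotype means of 11.6 and 10.8 CPM.

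OAS enzymes make the messenger that activates RNase L when they meet double-stranded RNA. Oas2 (chromosome 5, 120868398 to 120887918, minus strand) had the largest log2 fold change of all members. It had 3.98, 2.34, 3.92 and 4.34 CPM in WT tumors and 5.80, 4.54, 6.93 and 9.41 CPM in C3-/- tumors. The groups did not overlap, with 4.34 CPM as the highest WT value and 4.54 CPM as the lowest C3-/- value, and the means were 3.64 ± 0.891 and 6.67 ± 2.07 CPM (mean ± SD, n = 4 per genotype). The log2 fold change was 0.87 (SE 0.29), at an unadjusted p of 0.0138 and an adjusted p of 0.96 in edgeR, and it was 0.65 without C3-/- 4. Gm43068 overlaps Oas2 on the opposite strand. The neighbor on the same chromosome, Oas3, did not follow it, with 2.16 ± 1.16 CPM in WT and 2.21 ± 0.64 CPM in C3-/- tumors and a log2 fold change of 0.01 (SE 0.45). Oas1a (log2 fold change 0.12, SE 0.28) and Oasl2 (log2 fold change -0.07, SE 0.21) overlapped as well, and 26.2% of the Oas1a transcript matched Oas1g. Oasl1, an inhibitor of Irf7 translation in mice, was the member with the most negative value. It had 41.0, 36.9, 47.7 and 34.8 CPM in WT tumors and 42.0, 32.9, 25.8 and 26.0 CPM in C3-/- tumors, with means of 40.1 ± 5.66 and 31.7 ± 7.64 CPM. C3-/- 1 lay among the WT tumors and the other 3 lay below them, with a log2 fold change of -0.34 (SE 0.18), an unadjusted p of 0.0937 and an adjusted p of 0.973 in edgeR.

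The IFIT proteins bind viral RNA whose ends lack host cap marks, and their 4 genes lie side by side on chromosome 19. Ifit1 (34618271 to 34627409, plus strand) had 1.68, 0.98, 3.31 and 4.94 CPM in WT tumors and 4.59, 2.24, 3.15 and 5.58 CPM in C3-/- tumors, with means of 2.73 ± 1.77 and 3.89 ± 1.48 CPM. WT 1 and WT 2 were low and C3-/- 4 was highest, but WT 4 lay above 3 of the 4 C3-/- tumors. The log2 fold change of Ifit1 was 0.50 (SE 0.48), with an unadjusted p of 0.323 and an adjusted p of 0.999 in edgeR, and it ran from 0.22 without WT 2 to 0.97 without WT 4. Ifit3 (34560931 to 34566131, plus strand) varied most of all members within a genotype, with 1.49, 1.21, 4.60 and 4.89 CPM in WT tumors and 5.80, 1.51, 3.66 and 6.78 CPM in C3-/- tumors, with means of 3.05 ± 1.97 and 4.44 ± 2.35 CPM. Both genotypes thus held low and high tumors, and the log2 fold change came to 0.53 (SE 0.55, unadjusted p of 0.354 and adjusted p of 0.999 in edgeR) and ran from 0.26 without C3-/- 4 to 0.87 without WT 4. Its copy Ifit3b (34585370 to 34590801, plus strand) had 3 to 37 counts and a log2 fold change of 0.68 (SE 0.65, unadjusted p of 0.318 and adjusted p of 0.999 in edgeR), which was 0.19 without C3-/- 4 and 1.347 without WT 3. In CPM, Ifit3b had 0.187, 0.301, 1.51 and 0.723 in WT tumors and 0.983, 0.448, 0.883 and 2.02 in C3-/- tumors, with means of 0.680 ± 0.598 and 1.08 ± 0.668. The split of reads between this pair is uncertain, since 73.8% of the Ifit3b transcript and 50.6% of the Ifit3 transcript matched the other. Ifit2 had 1.73 to 3.83 CPM in WT tumors and 1.96 to 4.87 CPM in C3-/- tumors (log2 fold change 0.20, SE 0.36).

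ISG15 is a ubiquitin-like protein that is attached to other proteins by ligases such as HERC6 and removed by USP18, which also blocks the type I receptor. Isg15 (chromosome 4, 156283912 to 156285253, minus strand) had 1.74, 2.03, 5.12 and 3.49 CPM in WT tumors and 5.57, 1.74, 2.33 and 3.83 CPM in C3-/- tumors, with means of 3.10 ± 1.55 and 3.37 ± 1.71 CPM. High and low tumors occurred in both genotypes, and the log2 fold change was 0.13 (SE 0.44), at an unadjusted p of 0.783 and an adjusted p of 0.999 in edgeR. Its sign turned to -0.23 without C3-/- 1, and 31.2% of its transcript matched the gene model Gm46878. Usp18 had 2.79 to 6.00 CPM in WT tumors and 2.24 to 5.52 CPM in C3-/- tumors (log2 fold change -0.08, SE 0.33). Herc6 (chromosome 6, 57557985 to 57641617, plus strand) had 2.99, 3.39, 3.62 and 4.68 CPM in WT tumors and 3.18, 4.98, 5.93 and 4.76 CPM in C3-/- tumors, with means of 3.67 ± 0.723 and 4.71 ± 1.14 CPM. Of the C3-/- tumors, 3 were above all WT tumors and C3-/- 1 was not, with a log2 fold change of 0.35 (SE 0.26, unadjusted p of 0.206 and adjusted p of 0.999 in edgeR). Of the Herc6 transcript, 28.8% matched Gm45193 or Gm66279.

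The Mx proteins are dynamin-like GTPases that block viral nucleocapsids. Mx1 (chromosome 16, 97248235 to 97264107, minus strand) had 2.99, 0.527, 1.73 and 3.91 CPM in WT tumors and 2.34, 3.75, 3.28 and 3.99 CPM in C3-/- tumors, with means of 2.29 ± 1.48 and 3.34 ± 0.730 CPM. WT 2 was far below the rest with 7 counts, and the other WT tumors overlapped the C3-/- tumors (log2 fold change 0.52, SE 0.48, unadjusted p of 0.306 and adjusted p of 0.999 in edgeR). With a tumor left out, that value ran from 0.20 without WT 2 to 0.92 without WT 4. Mx2 (chromosome 16, 97336508 to 97362100, plus strand) had 2.24, 0.83, 1.36 and 1.53 CPM in WT tumors and 1.73, 1.79, 2.58 and 3.39 CPM in C3-/- tumors, with means of 1.49 ± 0.582 and 2.37 ± 0.781 CPM. Only WT 1 reached the C3-/- range, and the log2 fold change came to 0.66 (SE 0.37, unadjusted p of 0.104 and adjusted p of 0.985 in edgeR).

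**Figure D2:**
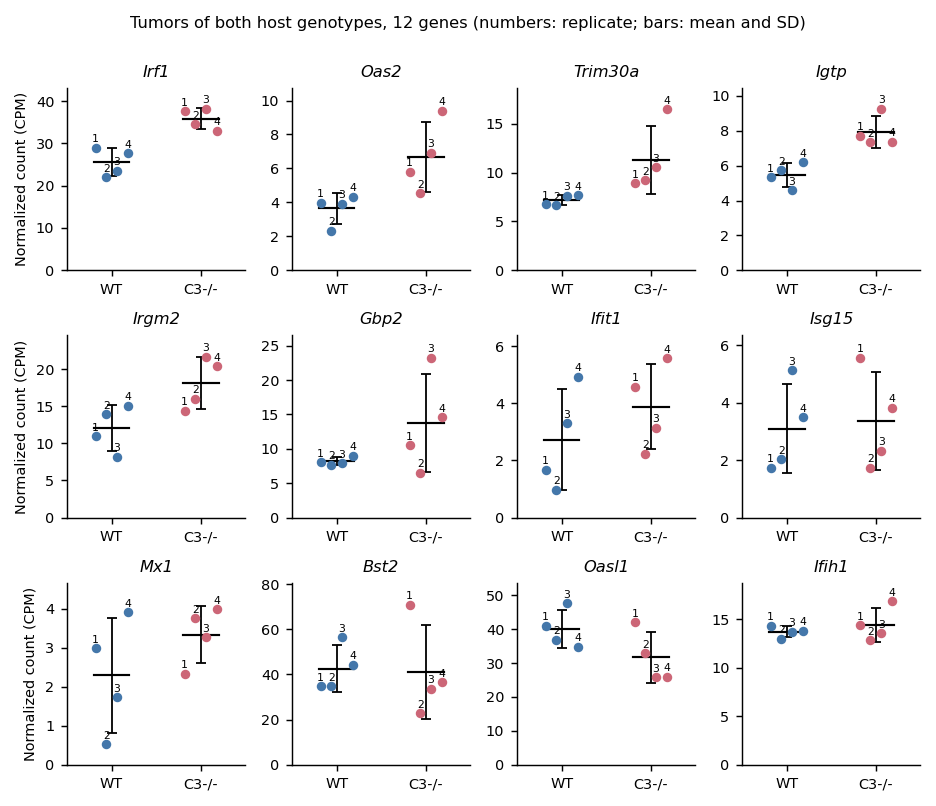
Normalized counts (y axis, CPM) of 12 interferon response genes in each tumor by host genotype, with the replicate number beside each point and bars for the mean and SD of 4 tumors. The C3-/- tumors lie above all WT tumors for Irf1, Oas2, Trim30a and Igtp, and the genotypes overlap for the other 8 genes.

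Guanylate-binding proteins are large GTPases that interferon gamma induces strongly and that coat intracellular pathogens. All 6 had a positive log2 fold change, from 0.36 to 0.75, and none separated the genotypes. Gbp2 (chromosome 3, 142326363 to 142343769, plus strand) had 8.09, 7.69, 7.91 and 8.98 CPM in WT tumors, which were closely alike. It had 10.5, 6.50, 23.3 and 14.6 CPM in C3-/- tumors, so that C3-/- 3 and C3-/- 4 were high and C3-/- 2 lay below all WT tumors. The means were 8.16 ± 0.566 and 13.7 ± 7.17 CPM (mean ± SD, n = 4 per genotype), and the log2 fold change came to 0.75 (SE 0.33, unadjusted p of 0.0484 and adjusted p of 0.971 in edgeR). Without C3-/- 3 it was 0.36. The same shape, with C3-/- 3 and C3-/- 4 as the highest tumors, was found for Gbp3 (9.20 and 9.95 CPM against at most 5.87 CPM elsewhere), Gbp5 (3.91 and 4.37 CPM against at most 2.48 CPM) and Gbp7 (15.6 and 14.6 CPM against at most 9.62 CPM). Gbp4 had 3.40 and 4.65 CPM in these tumors and at most 2.99 CPM in the others. Gbp6 had 4 to 31 counts, and 92.9% of its transcript matched Gbp10, Gbp4 or the gene model Gm43302.

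Immunity-related GTPases disrupt the vacuoles in which intracellular parasites live. Igtp (chromosome 11, 58090382 to 58098417, plus strand), also called Irgm3, had 5.35, 5.73, 4.60 and 6.21 CPM in WT tumors and 7.72, 7.34, 9.27 and 7.38 CPM in C3-/- tumors. The groups did not overlap, with means of 5.47 ± 0.682 and 7.93 ± 0.909 CPM (mean ± SD, n = 4 per genotype) and a log2 fold change of 0.53 (SE 0.19, unadjusted p of 0.0207 and adjusted p of 0.964 in edgeR). With a tumor left out, that value ran from 0.44 to 0.60. The gene models of Igtp and Irgm2 overlap over nearly all of Igtp, so the counts of the pair may share reads. Irgm2 had 10.9, 13.9, 8.21 and 15.1 CPM in WT tumors and 14.4, 16.0, 21.7 and 20.5 CPM in C3-/- tumors, with means of 12.1 ± 3.10 and 18.1 ± 3.48 CPM, and C3-/- 1 lay below WT 4. Its log2 fold change came to 0.59 (SE 0.22, unadjusted p of 0.025 and adjusted p of 0.965 in edgeR). Irgm1 (chromosome 11, 48752795 to 48762510, minus strand), the regulator of the family, had the highest FPKM of the class at 6.74. It had 34.8, 33.5, 43.0 and 43.8 CPM in WT tumors and 42.8, 35.6, 42.7 and 40.2 CPM in C3-/- tumors, with means of 38.8 ± 5.36 and 40.3 ± 3.39 CPM. The ranges were nearly the same (log2 fold change 0.06, SE 0.14, unadjusted p of 0.693 and adjusted p of 0.999 in edgeR). Ifi47 (log2 fold change 0.19, SE 0.20) and Iigp1 (log2 fold change 0.22, SE 0.43) overlapped, the latter with 8.26 CPM in C3-/- 3 and at most 5.23 CPM elsewhere. Tgtp1 had 0 to 34 counts and did not pass the count filter of edgeR, though DESeq2 tested it. Its whole transcript matched Tgtp2.

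The other effectors held 3 of the 4 members of highest FPKM, Bst2, Isg20 and Samd9l. Trim30a (chromosome 7, 104058232 to 104114400, minus strand) encodes a TRIM protein that dampens NF-kappa-B signaling. It had 6.78, 6.63, 7.61 and 7.70 CPM in WT tumors and 8.89, 9.24, 10.5 and 16.5 CPM in C3-/- tumors. All C3-/- tumors were above all WT tumors, and C3-/- 4 stood well above the other 3, with means of 7.18 ± 0.553 and 11.3 ± 3.52 CPM (mean ± SD, n = 4 per genotype). The log2 fold change came to 0.65 (SE 0.23, unadjusted p of 0.0171 and adjusted p of 0.96 in edgeR), and 0.41 without C3-/- 4. Of the Trim30a transcript, 32.8% matched Gm38110, Dnajc14 or Gm37724 at 98% identity or more, and Gm25405 overlaps the gene on the opposite strand. Bst2 (chromosome 8, 71986899 to 71990100, minus strand) had 34.8, 34.7, 56.4 and 44.4 CPM in WT tumors and 70.8, 22.9, 33.7 and 36.6 CPM in C3-/- tumors. C3-/- 1 was the highest of the 8 tumors and C3-/- 2 the lowest, and the genotype means were 42.6 ± 10.3 and 41.0 ± 20.7 CPM (mean ± SD, n = 4 per genotype). Its log2 fold change came to -0.05 (SE 0.31, unadjusted p of 0.87 and adjusted p of 0.999 in edgeR), which was -0.45 without C3-/- 1 and 0.15 without C3-/- 2.

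The other 10 effectors overlapped between genotypes, with log2 fold changes from 0.02 for Isg20 to 0.72 for Ifi44. Ifi44 (SE 0.48) had 7 to 50 counts and was highest in C3-/- 3 and C3-/- 4, at 2.84 and 2.73 CPM. Rsad2, which encodes the antiviral enzyme viperin, and its divergent neighbor Cmpk2 on chromosome 12 were both highest in C3-/- 1, at 6.36 and 3.60 CPM, and both lowest in WT 2, at 1.28 and 0.98 CPM. Their log2 fold changes were 0.68 (SE 0.47) and 0.44 (SE 0.39). Xaf1 (log2 fold change 0.41, SE 0.25) and the ADP-ribosyltransferase gene Parp14 (log2 fold change 0.39, SE 0.20) were highest in C3-/- 4, at 8.86 and 31.9 CPM. Samd9l had another order, with 94.3 CPM in WT 2 and 104 CPM in C3-/- 2 as its highest values and 48.4 to 79.9 CPM in the other 6 tumors (log2 fold change 0.28, SE 0.25). Zbp1, a sensor of Z-form nucleic acid (log2 fold change 0.29, SE 0.34), Ifi35 (log2 fold change 0.11, SE 0.25) and Rtp4 (log2 fold change 0.08, SE 0.36) completed the class.

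The RNA sensors MDA5 and LGP2 are encoded by Ifih1 and Dhx58. Ifih1 (chromosome 2, 62426142 to 62476599, minus strand) was steady, with 14.3, 12.96, 13.7 and 13.8 CPM in WT tumors and 14.4, 12.8, 13.6 and 16.8 CPM in C3-/- tumors, with means of 13.7 ± 0.553 and 14.4 ± 1.75 CPM (log2 fold change 0.07, SE 0.15, unadjusted p of 0.636 and adjusted p of 0.999 in edgeR). Dhx58 (chromosome 11, 100585710 to 100595097, minus strand) had 2.74, 1.81, 3.31 and 3.79 CPM in WT tumors and 3.84, 2.80, 4.79 and 4.05 CPM in C3-/- tumors, with means of 2.91 ± 0.852 and 3.87 ± 0.821 CPM. C3-/- replicates 1, 3 and 4 were above all WT tumors and C3-/- 2 was not (log2 fold change 0.40, SE 0.29, unadjusted p of 0.198 and adjusted p of 0.999 in edgeR). An antisense gene, Dhx58os, overlaps it. In all, 17 members overlap another gene of the table, 12 of them on the opposite strand, and the strand setting of the counting is not given in the sources used here.

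**Figure D3:**
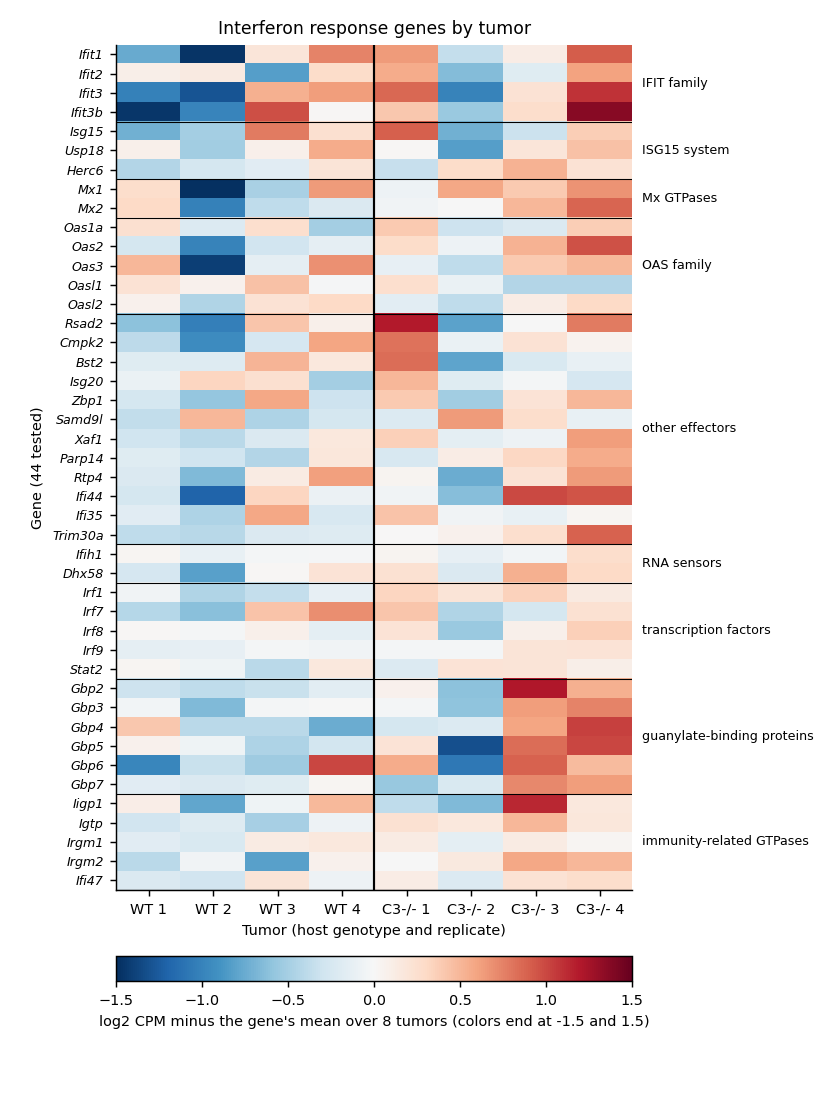
Log2 CPM of 44 interferon response genes (rows, by class) in 8 tumors (columns), shown as the difference from the gene's mean over all tumors, with red above and blue below that mean. WT 2 is blue for most genes, C3-/- 4 is red for most, and the guanylate-binding proteins are red in C3-/- 3 and C3-/- 4.

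Tumors differed from one another within a genotype. The median SD of log2 CPM within a genotype was 0.47 over the 44 genes and 0.31 over all genes tested. Among the 44, it ran from 0.10 for Irf9 to 0.97 for Ifit3. C3-/- 4 had the highest value of the 8 tumors for 18 of the 44 genes (40.9%), against 11.1% of all genes, and the lowest for 0. WT 2 had the lowest value for 21 (47.7%), against 10.9% of all genes, and the highest for 0. C3-/- 2 had the lowest value for 9 genes (20.5%, against 15.6% of all genes) and the highest for 2. C3-/- 3 had the highest value for 9 genes (20.5%, against 7.5% of all genes). C3-/- 1 and WT 4 each had it for 6 genes (13.6%), against 18% and 9.67% of all genes. The CPM of all 45 genes summed to 482, 488, 529.9 and 541 in WT tumors and to 596, 516, 608 and 613 in C3-/- tumors. C3-/- replicates 1, 3 and 4 exceeded every WT tumor in that sum, and C3-/- 2 lay below WT 3 and WT 4.

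**Figure D4:**
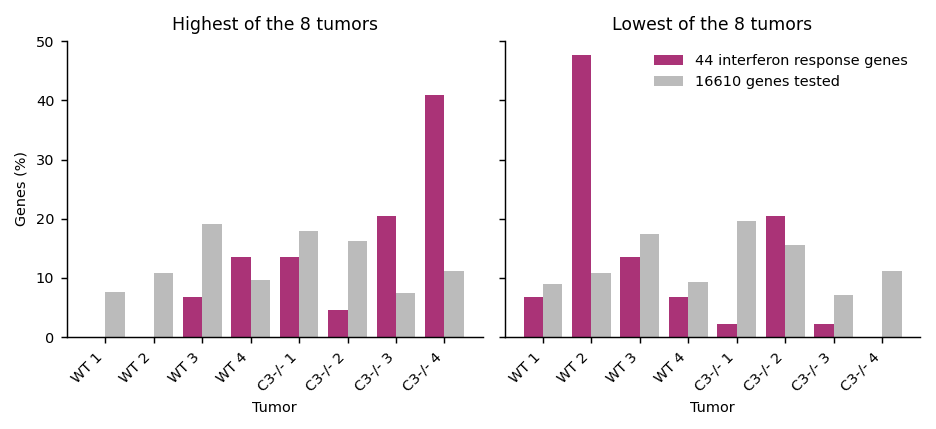
Share of genes (y axis, %) for which each tumor had the highest (left) or lowest (right) value of the 8, for 44 interferon response genes in purple and all 16610 genes tested in gray. C3-/- 4 was highest for 40.9% of the interferon response genes and WT 2 lowest for 47.7%, against 11.1% and 10.9% of all genes.

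The classes did not share one order of tumors. All 4 IFIT genes and both Mx genes were highest in C3-/- 4, and Mx1 and Mx2 were both lowest in WT 2. The mean log2 CPM of the IFIT genes was 0.40, 0.28, 1.40 and 1.60 in WT tumors and 1.80, 0.54, 1.29 and 2.18 in C3-/- tumors, so that each genotype spanned over 1 log2 unit. Of the 6 guanylate-binding proteins, 5 were highest in C3-/- 3 or C3-/- 4. Their mean log2 CPM was 1.51 to 1.82 over the WT tumors and 1.84, 1.17, 2.66 and 2.58 in C3-/- tumors. The immunity-related GTPases were highest in C3-/- 3 for 3 of 5 genes, with a class mean of 3.04 to 3.46 in WT tumors and 3.20 to 3.85 in C3-/- tumors. The transcription factors had the narrowest range, from 4.32 in WT 2 to 4.78 in C3-/- 4. The mean over all 44 genes was 2.58 ± 0.26 in WT tumors and 2.89 ± 0.33 in C3-/- tumors (mean ± SD, n = 4 per genotype), and the groups overlapped because C3-/- 2, at 2.43, lay below WT 1, WT 3 and WT 4. Among tested genes with a matched promoter, those with an ISRE core had a median log2 fold change of 0.47 (18 genes). Those without an ISRE core had a median of 0.19 (15 genes). Tested genes without a matched promoter are in neither group, and their log2 fold changes ran from -0.08 for Usp18 to 0.87 for Oas2. A link between motif and fold change was not tested.

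**Figure D5:**
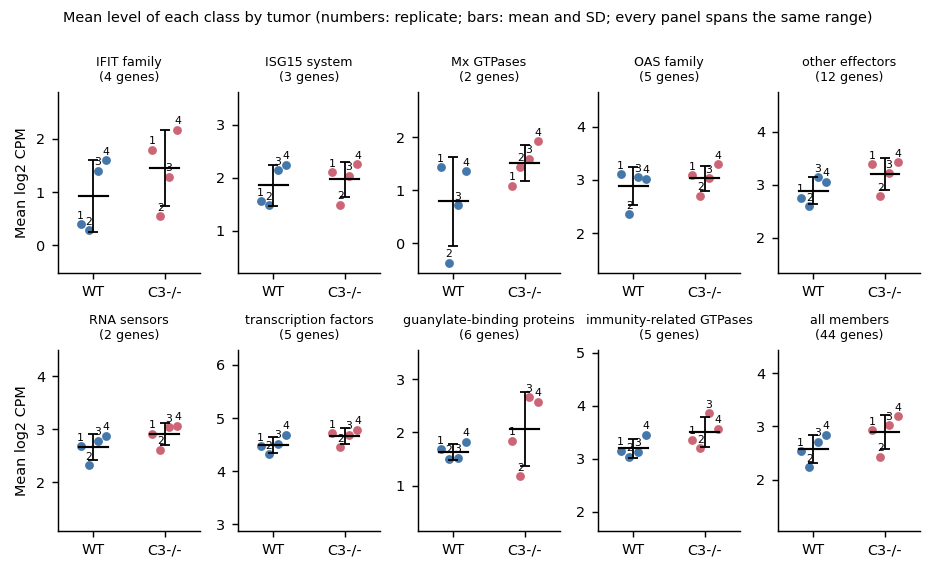
Mean log2 CPM (y axis) of the tested genes of each class and of all 44 genes in each tumor by host genotype, with the replicate number beside each point and bars for the mean and SD of 4 tumors. Every class overlaps between genotypes, and the guanylate-binding proteins split the C3-/- tumors into 3 and 4 above 1 and 2.

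The rest of the interferon pathway was read from a list of 54 ligands, receptors, signaling proteins, sensors and targets outside the 45 genes, of which 37 were in the table and 31 were tested. In edgeR, 0 of the 31 had an adjusted p below 0.05, and DESeq2 and limma-voom called 0 as well. At an unadjusted p below 0.05, 6 (19.4%) were higher in C3-/- tumors, against 3.03% of all genes, and 0 were lower, against 2.07%. A positive log2 fold change was found for 22 of the 31 (71%, against 50.0% of all genes), with a median of 0.13. The ligands were at the edge of detection. Ifna7, Ifnab, Ifnk and Ifnz had at most 7 counts in any tumor and Ifne, an epithelial type I interferon, had 5, 2, 7 and 5 counts in WT tumors and 23, 8, 9 and 24 counts in C3-/- tumors. All Ifne counts in C3-/- tumors were above those in WT tumors, but scaled to depth the groups overlapped (0.527 CPM in WT 3 and 0.448 CPM in C3-/- 2), and the gene did not pass the filter. Ifng, Ifnb1 and the other listed ligands were not analysed here.

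The receptors had log2 fold changes close to 0, from -0.06 to 0.16 over Ifnar1, Ifnar2, Ifngr1, Ifngr2, Ifnlr1 and Il10rb. Ifngr1 had the highest level of them, at 70.4 FPKM. Jak1 (log2 fold change -0.07, SE 0.15) and Jak2 (log2 fold change -0.10, SE 0.15) had values near 0. Tyk2, the kinase of the type I receptor (chromosome 9, 21015364 to 21042539, minus strand), had 50.6, 60.6, 42.3 and 46.9 CPM in WT tumors and 53.0, 76.8, 67.9 and 70.7 CPM in C3-/- tumors, with means of 50.1 ± 7.76 and 67.1 ± 10.1 CPM. C3-/- 1 lay among the WT tumors and the other 3 above them, with a log2 fold change of 0.42 (SE 0.15, unadjusted p of 0.0212 and adjusted p of 0.965 in edgeR). Ikbke, a kinase that phosphorylates IRF3 (chromosome 1, 131182080 to 131207344, minus strand), had the smallest p of these pathway genes. It had 22.9, 29.7, 22.8 and 25.0 CPM in WT tumors and 33.3, 36.3, 34.3 and 36.1 CPM in C3-/- tumors, with means of 25.1 ± 3.21 and 35.0 ± 1.45 CPM. Every C3-/- tumor was above every WT tumor (log2 fold change 0.48, SE 0.13, unadjusted p of 0.00395 and adjusted p of 0.933 in edgeR). Gm28913 and Gm28914 overlap Ikbke on the opposite strand. Of the 31 pathway genes, 2 (6.45%, against 2.28% of all genes) separated in this way, and 0 lay below, against 1.45%. The other was Mavs, with 38.7 to 47.5 CPM in WT tumors and 49.5 to 52.3 CPM in C3-/- tumors (log2 fold change 0.23, SE 0.11). The related kinase gene Tbk1 had a log2 fold change of -0.17 (SE 0.12).

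Among further targets, the feedback inhibitor gene Socs1 (log2 fold change 0.61, SE 0.26), the MHC class I regulator gene Nlrc5 (log2 fold change 0.64, SE 0.28) and the MHC class II regulator gene Ciita (log2 fold change 1.16, SE 0.50) had unadjusted p-values in edgeR of 0.0417, 0.0446 and 0.0416, and the genotypes overlapped for each. The last of the 6 pathway genes at an unadjusted p below 0.05 was Irf3, which was listed with nucleic acid sensing and not as a target. Its log2 fold change was 0.41 (SE 0.19, unadjusted p of 0.04995 in edgeR). The genotypes overlapped, with 29.1 to 43.8 CPM in WT tumors and 39.9 to 64.1 CPM in C3-/- tumors, highest in C3-/- 1. Cxcl10, a chemokine for activated T cells (chromosome 5, 92494497 to 92496748, minus strand), had 1.24, 1.05, 1.58 and 4.72 CPM in WT tumors and 2.85, 1.40, 4.35 and 3.94 CPM in C3-/- tumors, with means of 2.15 ± 1.73 and 3.14 ± 1.32 CPM. WT 4 was the highest tumor, and the log2 fold change came to 0.51 (SE 0.52, unadjusted p of 0.35 and adjusted p of 0.999 in edgeR). Without WT 4 it was 1.27.

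Markers of cells that could carry these transcripts moved as follows. The 8 myeloid markers summed to 940.5 to 1273 CPM in WT tumors and 813 to 1575 CPM in C3-/- tumors, highest in C3-/- 1 and C3-/- 4 and lowest in C3-/- 2. Of these 8, 6 had a positive log2 fold change, 1 was higher and 1 lower at an unadjusted p below 0.05 in edgeR. The lower one was Itgam, which encodes an integrin chain of myeloid cells, with 28.5 to 54.2 CPM in WT tumors and 17.5 to 31.2 CPM in C3-/- tumors (log2 fold change -0.57, SE 0.25, adjusted p of 0.971 in edgeR). The higher one was Ptprc, the general leukocyte gene, with 20.1 to 22.3 CPM in WT tumors and 23.3 to 44.0 CPM in C3-/- tumors (log2 fold change 0.52, SE 0.19, adjusted p of 0.965 in edgeR). The 9 markers of T and NK cells summed to 0.681 to 2.41 CPM in WT tumors and 1.06 to 4.30 CPM in C3-/- tumors, highest in C3-/- 1, 3 and 4. Cd3e had at most 5 counts in any tumor and Ncr1 was at 0 in 7 tumors. Cd4 had 5, 5, 1 and 1 counts in WT tumors and 33, 4, 21 and 26 counts in C3-/- tumors. Gzmb had 0, 3, 1 and 0 counts in WT tumors and 8, 5, 7 and 5 counts in C3-/- tumors. Klrk1 and Prf1 had a lower mean in C3-/- tumors (0.289 and 0.087 CPM) than in WT tumors (0.361 and 0.188 CPM). Among the 9, only Cd8a was tested in edgeR (log2 fold change 0.84, SE 0.83). The 5 markers of B and plasma cells summed to 2.11 to 9.83 CPM in WT tumors and 3.70 to 15.4 CPM in C3-/- tumors. Of these, Cd79a, a chain of the B cell receptor, had 4 to 11 counts in WT tumors and 9 to 32 counts in C3-/- tumors (log2 fold change 1.08, SE 0.45, unadjusted p of 0.0359 and adjusted p of 0.971 in edgeR). Of the 3 plasmacytoid dendritic cell markers, Siglech had at most 5 counts and Ccr9 at most 9, while Tcf4, which other cell types also express, had 925 to 2284 counts and a log2 fold change of 0.06 (SE 0.14). A positive log2 fold change was found for 0 of 7 markers of tumor epithelium, 1 of 6 of fibroblasts and 1 of 4 of endothelium, and 0 of these had an unadjusted p below 0.05 in edgeR. Fibroblast markers summed to 5021 to 8022 CPM in WT tumors and 3029 to 7921 CPM in C3-/- tumors, and endothelial markers to 146.5 to 201.2 CPM and 125.3 to 235.3 CPM. Marker transcripts thus differed between tumors too, and their part in the values given here was not tested.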

How the data were processed

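RNA was measured by poly-A selected, paired-end RNA-Seq of 8 KPC tumors, 4 per host genotype. The deposited counts per gene were used as they stand, and the deposited FPKM values served only to compare levels between genes. Columns of size-factor-normalized counts and of the DESeq2 comparison made by the authors (fold changes, p-values and adjusted values) were left aside. The paper names STAR and HTSeq, whereas the submitters' processing notes list HISAT2 2.0.5 and DESeq2 1.20.0, and which aligner made the table was not settled. Gene coordinates are mm39. The strand setting of the counting is not given in the sources used here. Counts are of read pairs without molecular identifiers, so depth covers counting error only.

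Genotypes were compared with edgeR 4.0.16 in R 4.3.3 (filterByExpr with a minimum count of 10, TMM, glmQLFit and glmQLFTest, Benjamini-Hochberg over 16610 genes). The SE was the log2 fold change divided by the square root of F. Means are given with the SD over the 4 tumors of a genotype. Log2 CPM used a prior count of 2. The steps were tested on simulated data. Alternatives were the size factors of DESeq2 within edgeR, the DESeq2 test (version 1.42.0), limma-voom from limma 3.58.1, a filter at 1 count over all tumors, a filter at 10 counts for each tumor, a replicate block, every tumor omitted once, and WT 4 omitted together with C3-/- 1. Transcripts of GENCODE release M39 were compared with blastn 2.17.0 (matches of at least 100 bases at 98% identity). Promoters came from RefSeq (GRCm38.p6), and their coordinates were not joined to those of the table.

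The 45 genes, the pathway and marker lists and the tests were chosen with earlier results of these data known. Full values were given for Ifit1 and Isg15, for the member of highest mean FPKM and of smallest unadjusted p in each class, and for Cxcl10 and the 2 pathway genes of smallest unadjusted p. A pathway gene of the planned list is not reported here and was left out of its counts. Irgm2 was added after its values were seen, being among the 6 genes at an unadjusted p below 0.05.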

Additional observations from a re-analysis of the deposited data

Results flagged for a closer look

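In 4 WT tumors, Oas2 was low in WT 2, at 1.29 log2 CPM against 2.01 to 2.16 in the other 3. The mean of the OAS family stood apart in the same tumor, at 2.36 log2 CPM against 3.02 to 3.11. Both were picked out because the gap of WT 2 to the nearest tumor was large for the range of the group. The second value contains the first and the pair is not independent. Over 62 groups of 4 tumors examined, chance alone picks out about 1 in 20. With any 1 tumor left out, the log2 fold change of Oas2 ran from 0.65 to 1.01.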

How the results depend on the processing

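The count of interferon response genes with an adjusted p below 0.05 was 0 in edgeR and in all 15 alternatives, and that of the other pathway genes was 0 likewise. The count over all genes, 0 in edgeR, was 16 in DESeq2, 4 with WT 4 and C3-/- 1 both left out, and 0 to 4 with a tumor left out. The median log2 fold change of the members was 0.30 to 0.49 under the other settings and 0.24 to 0.46 with a tumor left out. The number with a positive log2 fold change was 34 to 43 with a tumor left out. The count at an unadjusted p below 0.05, 6 in edgeR, was 5 in limma-voom (all higher in C3-/- tumors, where 3.05% of all genes were higher and 2.09% lower), 9 with WT 4 and C3-/- 1 both left out (8 higher and 1 lower, where 5.67% of all genes were higher and 6.73% lower), and 2 to 9 with a tumor left out. These last 2 counts were added as results after the data were seen.

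With the replicate block in edgeR, the median log2 fold change was 0.33, 39 members were positive (49.6% of all genes were) and 0 were called. At an unadjusted p below 0.05, 4 were higher, without Igtp and Gbp2, where 2.47% of all genes were higher and 1.64% lower. The residuals of tumors with the same number correlated at -0.03, 0.49, -0.36 and 0.59. The signs were mixed, and whether the numbers pair the tumors cannot be told from these values.

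Of 21 genes given in full, 17 kept their sign in all alternatives run. Isg15 ranged from -0.23 to 0.47 with a tumor left out, turning negative without WT 1, WT 2 or C3-/- 1 (-0.07, -0.03 and -0.23) and without both WT 4 and C3-/- 1 (-0.17). Bst2, from -0.45 to 0.15, turned positive without WT 3, C3-/- 2 or C3-/- 3 (0.11, 0.15 and 0.02). Ifih1 ran from -0.012 without C3-/- 4 to 0.12, and Irgm1 from -0.0093 without WT 2 to 0.12. With a tumor left out, Herc6 ran from 0.22 without C3-/- 3 to 0.50, Mx2 from 0.44 without C3-/- 4 to 0.92, and Dhx58 from 0.23 without WT 2 to 0.56. The cause was not tested. The smallest adjusted p of these 21 genes under any setting was 0.297. Low depth limits Ifit3b, Gbp6, Ifi44, Mx1, Oas3 and Tgtp1, each with under 10 counts in at least 1 tumor.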
